A study of Mus musculus with 30 samples.

Results

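The interferon-stimulated genes Ifit1, Ifit3, Isg15, Irf7, Oasl2, Usp18, Rsad2, Bst2 and Rtp4 were followed through 30 RNA libraries from mouse aorta and kidney. The members were taken by name, and all 9 were found among the 41128 genes of both count tables and passed the filter on low counts in both tissues. Wild-type mice (WT) carried the tamoxifen-inducible Smmhc-Cre-ERT2 transgene without floxed alleles. Knockout mice (KO) carried the same transgene together with Egfr flox/flox, so that the EGF receptor was deleted in vascular smooth muscle cells (VSMC) only. All mice were males on the C57BL/6 background, and all of them, controls included, received tamoxifen. From 6 weeks of age they were given a standard fat diet (SFD) or a high-fat diet (HFD) for 18 weeks. Aorta was represented by 3 WT-SFD, 4 WT-HFD, 3 KO-SFD and 4 KO-HFD mice and kidney by 4 mice in each group, and 3 mice gave both tissues. The libraries were made from whole tissue, in which fewer cells of a type cannot be told apart from less RNA per cell. Deletion by this transgene is limited to smooth muscle, which made up little of the kidney RNA.

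Type I interferons bind the receptor IFNAR1/IFNAR2, and the kinases JAK1 and TYK2 then activate transcription factors of the STAT family. With IRF9, these form a complex that binds the interferon-stimulated response element in the promoters of its target genes. The targets include proteins that bind or restrict viral RNA and particles (Ifit1, Ifit3, Oasl2, Rsad2, Bst2), the ubiquitin-like modifier Isg15, the transcription factor Irf7, which amplifies interferon production, the protease Usp18, which removes ISG15 from proteins and dampens receptor signalling, and the receptor transporter Rtp4.

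The promoter stretches of 5 members are shown because they carry the letters by which this family is usually recognised. The motif GAAANNGAAA, or TTTCNNTTTC on the other strand, was searched in RefSeq promoter windows of 300 bases (250 before and 50 after the start of the gene, GRCm38.p6). It occurred in 3.44% of 32851 windows, in 5 of the 7 members with a window and in 19 of 45 other interferon-stimulated genes (42.2%). Matches may overlap, as they do in Isg15 and Bst2. In each stretch, which runs 5′ to 3′ on the strand of the gene from 160 to 51 bases before its start, the capitals mark the matches.
Ifit1: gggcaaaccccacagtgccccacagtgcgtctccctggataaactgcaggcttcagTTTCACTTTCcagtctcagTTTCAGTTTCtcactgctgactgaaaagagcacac
Ifit3: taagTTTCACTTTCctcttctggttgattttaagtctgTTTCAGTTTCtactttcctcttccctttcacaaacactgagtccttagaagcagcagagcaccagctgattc
Isg15: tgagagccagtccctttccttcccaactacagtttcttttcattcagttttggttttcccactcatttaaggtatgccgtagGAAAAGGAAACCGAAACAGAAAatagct
Rsad2: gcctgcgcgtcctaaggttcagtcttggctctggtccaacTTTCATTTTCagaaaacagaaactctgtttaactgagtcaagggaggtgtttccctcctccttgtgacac
Bst2: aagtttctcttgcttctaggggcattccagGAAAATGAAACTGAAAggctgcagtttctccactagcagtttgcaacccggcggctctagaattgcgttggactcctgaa
The stretches lie at chr19:34640729-34640838 (Ifit1, plus strand), chr19:34583369-34583478 (Ifit3, plus), chr4:156200869-156200978 (Isg15, minus), chr12:26456503-26456612 (Rsad2, minus) and chr8:71537523-71537632 (Bst2, minus). Ifit1 and Ifit3 lie near each other on chromosome 19, and both hold 2 matches in the reverse orientation. Isg15 holds 3 matches, Bst2 holds 2 and Rsad2 holds 1. The windows of Irf7 and Oasl2 did not hold these letters, which says nothing about the binding of a factor. A match describes the sequence and is not a measured binding site.

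The tissues matched their labels. The smooth muscle list (Acta2, Myh11, Myocd and Lmod1 with counts, Tagln and Cnn1 not analysed here) summed to between 9203 and 16713 counts per 1000000 (CPM) in aorta and to between 38.0 and 65.5 CPM in kidney. The tubule list was led by Kap in kidney, where it summed to at least 22896 CPM, and stood at no more than 5.75 CPM in aorta. Egfr, which the KO targets, was 46.7 ± 7.39 CPM in WT-SFD aorta (SD, n = 3), 30.0 ± 4.72 in KO-SFD (n = 3), 57.5 ± 5.70 in WT-HFD (n = 4) and 35.2 ± 6.08 in KO-HFD (n = 4). The genotypes did not overlap on either diet, but the log2 differences of -0.64 and -0.70 did not pass the test over all genes (edgeR quasi-likelihood test, Benjamini-Hochberg adjusted p = 0.547 and 0.129). In kidney the Egfr means of the 4 groups lay between 43.1 and 53.5 CPM.

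Depth separated the tissues. Aortic libraries held between 6403700 and 13052900 counts and kidney libraries between 16354900 and 28331300 counts, to 6 digits. Protein-coding genes took 42.6% to 63.9% of the counts in aorta and 85.2% to 86.6% in kidney. A single count was worth 0.0798 to 0.144 CPM in aorta, so that the lowest member value, Isg15 in KO-SFD-1319, rested on 4 counts. Every gene of chromosomes 9, X and Y and of the mitochondrial genome, and every gene of chromosome 8 beyond Gm7191, was listed at 0 in all 30 libraries, 6552 genes in all and 2693 of them protein-coding. Genes such as Tagln and Cnn1, major smooth muscle transcripts, lie there, so a 0 in these stretches is not a measured absence, and listed genes from them are given as not analysed here. All 9 members lie outside them.

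Several aortae stood apart by transcripts of other cells. The 12 adipocyte markers, led by Fabp4, summed to 5303 CPM in WT-SFD-1309, 3778 in WT-SFD-1310, 3028 in KO-SFD-1319 and 1035 in KO-SFD-1452. In the other 10 aortae, all 8 of the HFD mice among them, they summed to between 105.8 and 324 CPM, and at most 2 of the 12 were at 0. The 3 haemoglobin genes Hba-a1, Hba-a2 and Hbb-bs ran the other way, with 18.3, 6.96 and 15.5 CPM in the first 3 of these aortae and 118 to 577 CPM in the rest. Macrophage and general leucocyte markers (10 genes, led by Lyz2, none at 0) summed to between 113 and 295 CPM, highest in KO-HFD-1503 and KO-SFD-1319.

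All members were present at low to moderate levels. Per kilobase of exon, the scale on which genes can be compared with each other, Bst2, the membrane tether of budding virus particles, was the highest member in every one of the 30 libraries. It reached 12.1 ± 2.98 CPM per kilobase in aorta (SD, n = 14) and 31.3 ± 7.45 in kidney (n = 16). Ifit3, a partner of the RNA-binding Ifit1, came next in the order of the means, with 4.81 ± 1.38 in aorta and 16.9 ± 6.47 in kidney. Next in kidney were Isg15 (6.93 ± 2.03), Rsad2 (6.73 ± 1.66) and Irf7 (6.69 ± 1.79), which did not differ beyond their spread. Rtp4 (3.80 ± 0.759), Ifit1 (2.198 ± 0.849), Usp18 (1.798 ± 0.421) and Oasl2 (1.79 ± 0.529) followed. The last pair could not be separated, since Usp18 was the higher one in 7 of 16 kidneys. In aorta, Rsad2 (3.70 ± 2.26), Isg15 (2.27 ± 1.17), Ifit1 (1.73 ± 0.817), Rtp4 (1.59 ± 0.661), Oasl2 (1.49 ± 0.456), Usp18 (1.35 ± 0.445) and Irf7 (1.33 ± 0.413) followed Ifit3, and each of them overlapped its neighbour in range. Because Ifit3 is nearly identical to its neighbour Ifit3b, reads may be split between these genes, and the Ifit3 level is uncertain to that extent. The strand setting of the counting is not given in the sources used here, so Irf7 and Usp18, which share 45 and 124 exon bases with a gene on the opposite strand, carry a similar uncertainty, as does Rtp4, which shares 296 exon bases with a gene on its own strand.

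The tissues were sequenced and scaled separately, so their values are set side by side without a test. Irf7 had a mean of 5.01 CPM in aorta and 25.3 CPM in kidney. Ifit3 had 8.39 and 29.4 CPM, Isg15 1.72 and 5.24, Bst2 11.0 and 28.3, and Rtp4 3.38 and 8.10 CPM. For these 5 members no aorta reached the lowest kidney. Ifit1 (4.59 and 5.84 CPM), Oasl2 (9.47 and 11.4), Usp18 (3.78 and 5.02) and Rsad2 (16.1 and 29.2) overlapped between the tissues.

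The kidney values are given first, since they rest on more counts. Ifit1, which recognises foreign RNA caps, was measured at 4.33, 2.83, 10.2 and 6.63 CPM in the 4 WT-SFD mice. The WT-HFD mice had 8.69, 4.90, 3.75 and 5.16 CPM, the KO-SFD mice 5.01, 8.24, 5.57 and 8.95 CPM and the KO-HFD mice 5.20, 6.74, 2.28 and 4.87 CPM. Every pair of groups overlapped, and the WT-SFD group alone spanned nearly the whole range.

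Ifit3 was measured at 23.7, 19.5, 46.8 and 21.4 CPM in the WT-SFD mice and at 35.9, 21.1, 20.4 and 21.3 CPM in the WT-HFD mice. KO-SFD kidneys had 35.1, 55.9, 27.2 and 40.3 CPM and KO-HFD kidneys 34.2, 31.5, 15.2 and 21.1 CPM. The KO-SFD group had the highest mean (39.6 ± 12.1 CPM, n = 4), but its lowest mouse lay inside each of the other groups.

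Irf7 was measured at 16.3, 20.8, 39.7 and 38.4 CPM in WT-SFD, at 26.4, 25.5, 17.8 and 22.5 CPM in WT-HFD, at 20.05, 33.3, 21.4 and 29.0 CPM in KO-SFD and at 23.0, 24.2, 23.0 and 23.0 CPM in KO-HFD. The SD was 12.0 CPM in WT-SFD and 0.590 CPM in KO-HFD, so the groups differed more in how closely the mice agreed than in their means of 28.8 and 23.3 CPM. The difference in spread was not tested.

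**Figure D1:**
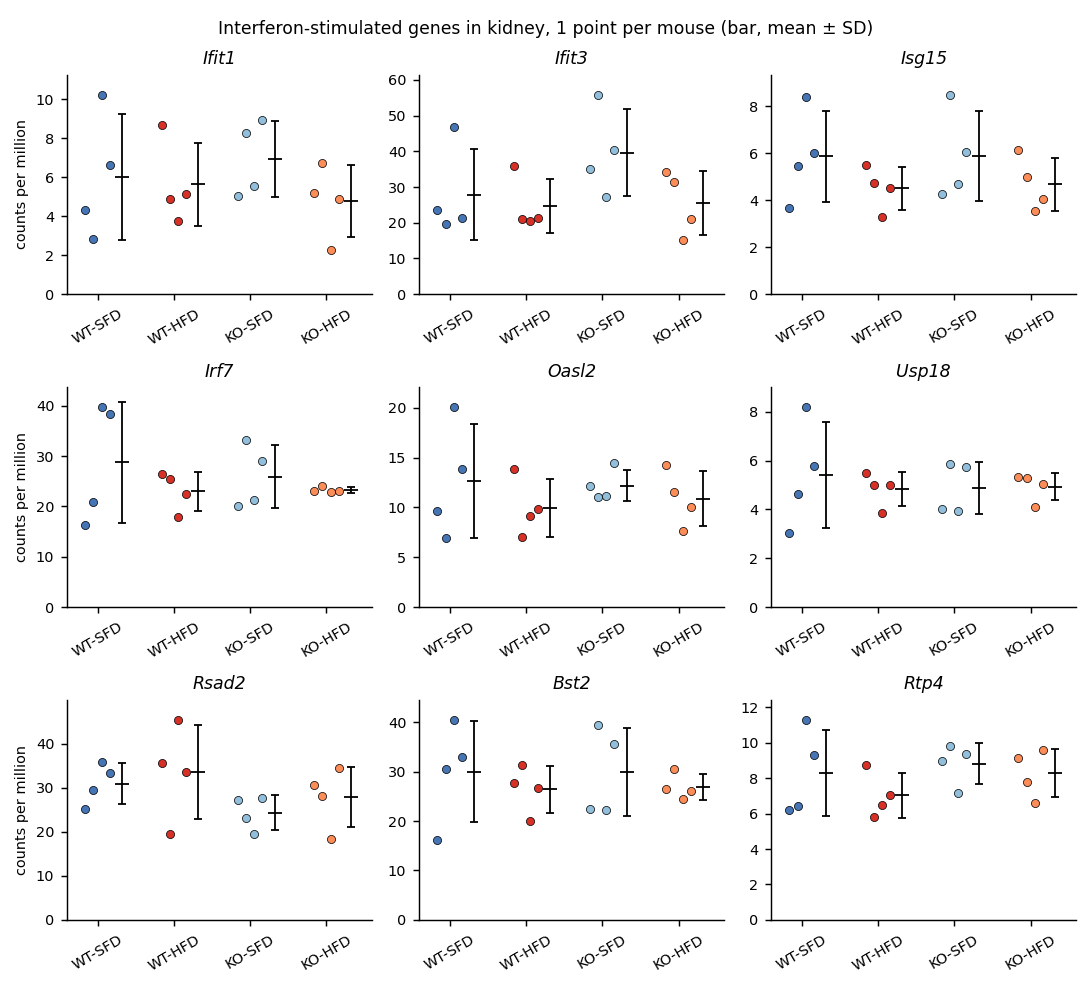
Each panel plots the level of 1 member in kidney, in CPM after TMM scaling, with 1 point per mouse, 4 mice per group and the mean ± SD as a black bar. The WT-SFD mouse at the top of the Ifit1, Irf7, Oasl2, Usp18, Bst2 and Rtp4 panels is the same animal, WT-SFD-1694.

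Between mice the members varied together in kidney. WT-SFD-1694 was the highest of 16 kidneys for 6 members and among the highest 3 for all 9. KO-SFD-1318 was the highest for Ifit3 (55.9 CPM) and Isg15 (8.51 CPM) and was among the highest 3 for 6 members. WT-SFD-1309 and KO-HFD-1520 were each the lowest for 3 members. The summed level of the members ran from 105.2 CPM in KO-HFD-1520 and 108 CPM in WT-SFD-1309 to 221 CPM in WT-SFD-1694. Mice of the WT-SFD group thus stood both at the top and near the bottom. WT-SFD-1694 was also the deepest library. Across the 16 kidneys the mean z score of the members (the mean of their standardised log2 CPM) correlated with log2 depth at r = 0.65, and at r = 0.43 without that library. The part of depth in this relation was not tested.

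Across the 16 kidneys the 36 pairs of members had Pearson correlations of log2 CPM between 0.03 and 0.92, with a mean of 0.59. The highest were Usp18 with Bst2 (0.92), Irf7 with Usp18 (0.89), Irf7 with Bst2 (0.88) and Oasl2 with Rtp4 (0.85). Ifit1 with Ifit3 stood at 0.83, although Ifit3 stood at 0.49 with Irf7. Rsad2, the enzyme viperin, was the exception. Its correlations with the other 8 members ran from 0.03 to 0.40, and without Rsad2 the mean of the pairs was 0.70. On deviations from the group means, taken over all 16 kidneys, the mean of the 36 pairs was 0.64. The Rsad2 correlations then ran from 0.09 (with Bst2) to 0.65 (with Rtp4). No group was examined alone. These correlations are descriptions over libraries that share depth and tissue composition.

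**Figure D2:**
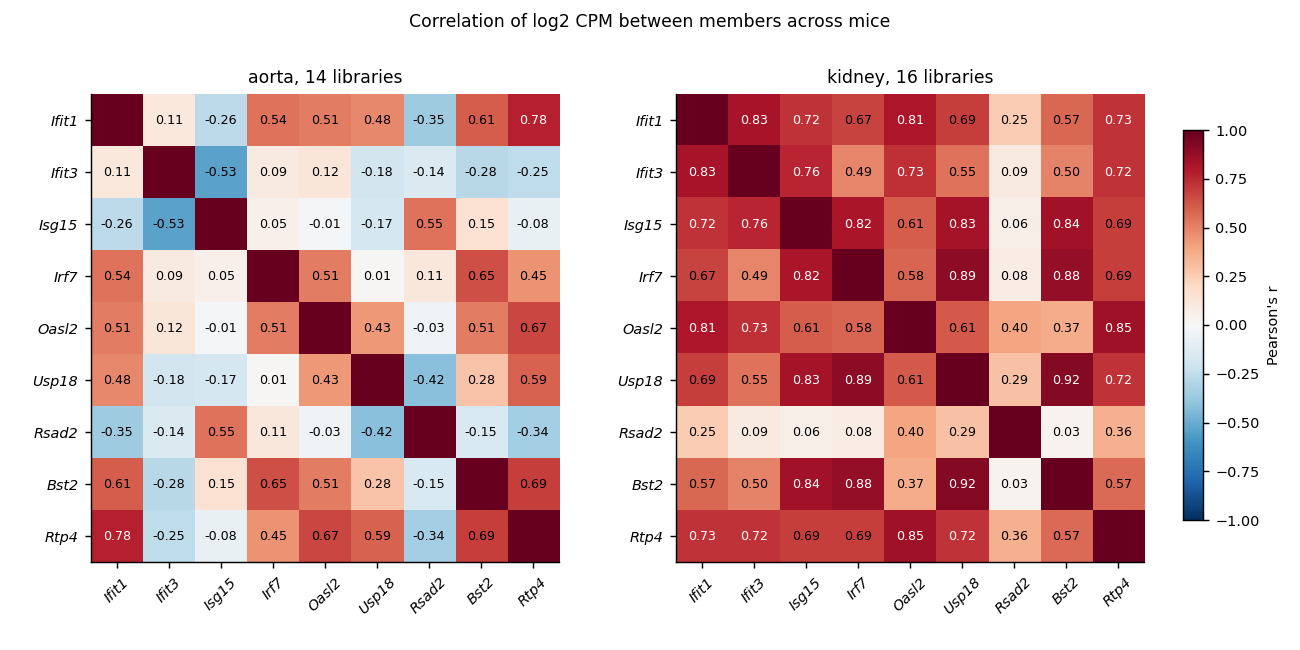
Pearson's r of log2 CPM between each pair of members, over 14 aortae (left) and 16 kidneys (right), coloured from -1 (blue) to 1 (red). In kidney all 36 pairs are positive and the Rsad2 row is the palest, and in aorta 22 of 36 pairs are positive.

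The genes most like the mean of the members in kidney, by the same correlation over all 16 libraries, were Ifitm3 (0.88), Xaf1 (0.84), Gbp3 (0.83), Lgals9 (0.83), Phf11d (0.81), Ly6c1 (0.81), Parp9 (0.81), Gm4955 (0.80), Apol9a (0.79) and Slfn2 (0.78). Of these 10 genes, 8 were on the lists of other interferon-stimulated genes or of genes induced by interferon gamma. On deviations from the group means 7 of the same genes were again among the first 10, led by Ifitm3 (0.88) and Parp9 (0.88). Marker lists, which were not picked for likeness, are given beside them. The leucocyte list (10 of 10 markers tested, none at 0, led by Csf1r) summed to between 149.9 CPM in KO-HFD-1520 and 315 CPM in KO-HFD-1504 and correlated at 0.43. The lymphocyte list (6 of 8 tested, led by Cd79a, with Cd3d and Cd3e not analysed here) summed to between 3.74 and 47.7 CPM and correlated at 0.59. The part of these cells in the covariation was not tested.

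Rsad2 in kidney was measured at 25.1, 29.4, 35.9 and 33.3 CPM in WT-SFD, at 35.6, 19.5, 45.3 and 33.6 CPM in WT-HFD, at 27.2, 23.0, 19.5 and 27.8 CPM in KO-SFD and at 30.6, 28.1, 18.3 and 34.6 CPM in KO-HFD. WT-HFD-1641 was the highest kidney for Rsad2 but among the lowest 3 for 6 other members. The genes most like Rsad2, chosen after its values were seen, were Ptpru (0.89), Cd93 (0.88), Kank4 (0.87) and Elk3 (0.84), and Cmpk2, the gene next to Rsad2, stood at 0.81. In aorta Rsad2 and Cmpk2 stood at 0.00.

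The remaining members are given by group. Bst2 in kidney was 30.0 ± 10.2 CPM in WT-SFD, 26.4 ± 4.78 in WT-HFD, 29.9 ± 8.88 in KO-SFD and 26.9 ± 2.60 in KO-HFD (SD, n = 4 each). Isg15 was 5.88 ± 1.94 CPM in WT-SFD, 4.52 ± 0.916 in WT-HFD, 5.89 ± 1.90 in KO-SFD and 4.68 ± 1.13 in KO-HFD. All 4 group means of Bst2, and likewise those of Isg15, lay closer together than the SD of the WT-SFD mice. Oasl2 group means ran from 9.93 to 12.6 CPM, Usp18 from 4.84 to 5.41 CPM and Rtp4 from 7.02 to 8.81 CPM.

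In the kidney comparisons no member passed the test at an adjusted p of 0.05. On HFD against SFD in WT, 0 of 9 members were called, against 0.911% of the 15034 genes tested, and 0 of 9 had groups without overlap, against 5.01%. The log2 differences of 8 members were below 0, under every scaling tried, with a median of -0.19 beside a median of 0.00 over all genes. The median rested on single mice, with -0.0072 and 5 of 9 below 0 without WT-SFD-1694, -0.36 without WT-SFD-1309, -0.33 without WT-SFD-1446, -0.41 without WT-HFD-1535 and -0.10 without WT-HFD-1641. The differences ran from -0.39 ± 0.26 (SE) in Isg15, with an edgeR adjusted p of 0.849, to 0.11 ± 0.22 in Rsad2. At an unadjusted p under 0.05 there was again no member, against 7.9% of genes.

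On HFD against SFD in KO kidneys, 0 of 9 members were called, against 2.3% of genes. No member separated the groups, against 8.87% of genes, and none had an unadjusted p under 0.05, against 15.8%. The median log2 difference of the members was -0.15, with 7 of 9 below 0. It was -0.034 without KO-SFD-1318, -0.071 without KO-SFD-1451, -0.094 without KO-HFD-1520, -0.26 without KO-SFD-1303 and -0.24 without KO-SFD-1319. Ifit3 had the lowest, -0.63 ± 0.31 (SE, adjusted p = 0.336 in edgeR), from 39.6 ± 12.1 CPM on SFD to 25.5 ± 8.87 CPM on HFD (SD, n = 4 each).

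Between genotypes no member was called in kidney either. In KO against WT on SFD, 0 of 9 members were called (0.0133% of genes), 0 separated the groups (3.98%) and 0 had an unadjusted p under 0.05 (8.37%). The log2 differences ran from -0.35 ± 0.22 (SE) in Rsad2 to 0.50 ± 0.31 in Ifit3, with a median of -0.01 that lay between -0.18 (without WT-SFD-1309) and 0.22 (without WT-SFD-1694) when 1 mouse was left out. In KO against WT on HFD, 0 of 9 were called (0.00665% of genes), 0 separated the groups (1.32%) and 0 had an unadjusted p under 0.05 (1.65%), with log2 differences between -0.26 in Rsad2 and 0.24 in Rtp4. The difference between the diet effects of KO and WT was called for 0 of 9 members (0% of genes, unadjusted 0 of 9 against 3.23%), with values between -0.45 and 0.19 and SEs of 0.28 to 0.53. The SEs of the kidney comparisons between pairs of groups, 0.20 to 0.38, set the size of difference that could be seen with 4 mice per group. DESeq2 and edgeR's exact test called no member either.

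**Figure D3:**
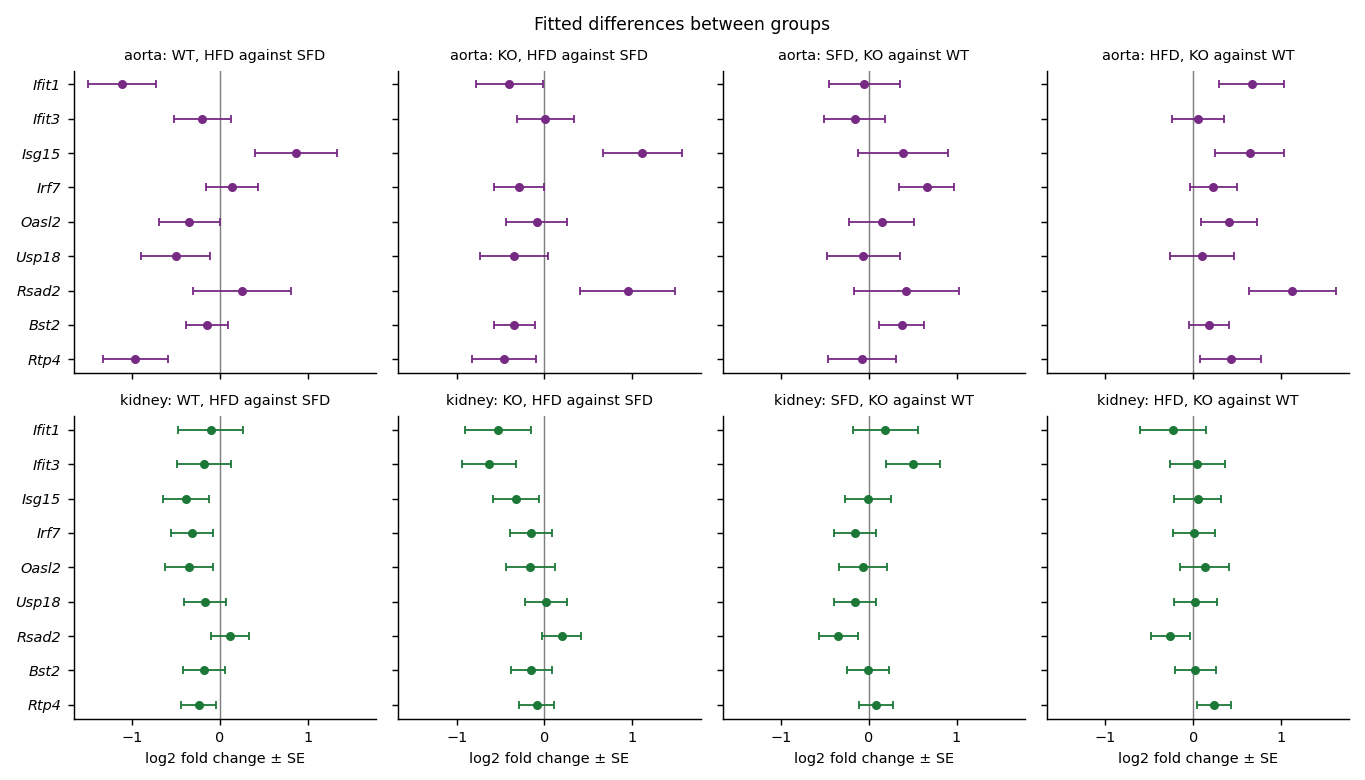
Fitted log2 fold changes of the 9 members with their SE as bars, for 4 comparisons in aorta (top) and kidney (bottom). In kidney the points lie between -0.63 and 0.50, and in aorta between -1.12 and 1.13, with Ifit1 and Rtp4 lowest on HFD in WT and Isg15 and Rsad2 highest on HFD in KO.

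In aorta the correlations between members had both signs. Over 14 libraries the 36 pairs correlated between -0.53 and 0.78, with a mean of 0.16. Ifit1 with Rtp4 (0.78), Bst2 with Rtp4 (0.69), Oasl2 with Rtp4 (0.67) and Irf7 with Bst2 (0.65) were the highest, and Ifit3 with Isg15 (-0.53) the lowest. Ifit1, Irf7, Oasl2, Bst2 and Rtp4 each correlated at 0.63 to 0.73 with the mean of the other members. Isg15 (-0.07), Rsad2 (-0.17), Ifit3 (-0.23) and Usp18 (0.25) did not follow it. Counts were low here, with 4 to 40 counts per library for Isg15.

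Among the 10 genes most like the mean of the members in aorta were Themis2 (0.89), Ccl9 (0.88), Bst1 (0.86), Gm5776 (0.86), Ccl6 (0.86), Sdc3 (0.84), Clec12a (0.84), RP23.69F3.1 (0.83) and Cd48 (0.83). None of the 10 was on any of the lists of interferon genes or cell markers, and 4 of them were again among the first 10 on deviations from the group means, where Cmah (0.92) and Siglec1 (0.90) stood high and Tgtp1 (0.86), of the list induced by interferon gamma, was also found. By their summed levels, the list of other interferon-stimulated genes correlated with the mean of the members at 0.67, the list induced by interferon gamma at 0.68 and the leucocyte list at 0.64. The part of leucocytes in this likeness was not tested.

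On HFD against SFD in WT aortae, Ifit1 and Rtp4 had the lowest log2 differences of the members. Ifit1 was measured at 6.81, 7.68 and 3.46 CPM in WT-SFD-1309, WT-SFD-1310 and WT-SFD-1445 and at 3.87, 2.71, 1.66 and 2.81 CPM in the 4 WT-HFD aortae. The groups overlapped only through WT-SFD-1445, which lay below the highest HFD aorta. The log2 difference was -1.12 ± 0.39 (SE), with an edgeR adjusted p of 0.155. Rtp4, which guides receptors to the cell surface, was measured at 5.72, 5.01 and 2.59 CPM on SFD and at 3.16, 2.31, 2.29 and 1.28 CPM on HFD. Its difference was -0.97 ± 0.37 (SE, adjusted p = 0.202 in edgeR), and WT-SFD-1445 was again the aorta that overlapped. Without WT-SFD-1445 both genes passed the test, with -1.39 (adjusted p = 0.0315) for Ifit1 and -1.23 (adjusted p = 0.0473) for Rtp4 in edgeR. In that refit, however, 1801 of 15329 genes were called (11.7%), and the SFD aortae left in WT were the pair rich in adipocyte transcripts. Leaving out 1 aorta at a time gave between -1.39 and -0.89 for Ifit1 and between -1.23 and -0.76 for Rtp4.

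The same aortae differed in adipocyte markers, of which WT-SFD-1309 and WT-SFD-1310 held 5303 and 3778 CPM, WT-SFD-1445 held 164 CPM and the WT-HFD aortae held 184 to 324 CPM. All 12 markers had a log2 difference below 0 on HFD, with a median of -3.72, and none was called. With the mean of these markers as a covariate the edgeR difference was -0.44 for Ifit1 and -0.29 for Rtp4. With the haemoglobin genes as a covariate, an alternative chosen after seeing the data, it was -0.31 and -0.53. KO-SFD-1319, the third aorta rich in adipocyte transcripts, had the highest Ifit1 of all (9.49 CPM) and 5.08 CPM of Rtp4, but it also had the second highest leucocyte sum (281 CPM). KO-SFD-1452, with 1035 CPM of adipocyte markers, had 4.87 CPM of Ifit1, less than the 5.62 CPM in KO-HFD-1503 with 233 CPM of these markers. For Rtp4 the order was reversed, with 5.42 CPM in KO-SFD-1452 and 4.03 CPM in KO-HFD-1503. Adipose transcripts and diet could not be told apart with 3 SFD aortae in WT.

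Over all members, 0 of 9 were called on HFD against SFD in WT aortae (0% of 14796 genes). At an unadjusted p under 0.05 there were 2 of 9, Ifit1 and Rtp4, against 16.7% of genes, and 0 of 9 separated the groups, against 8.96%. The median log2 difference was -0.20 beside -0.01 for all genes, with 6 of 9 below 0. It was -0.37 without WT-SFD-1445, -0.35 without WT-SFD-1309 and -0.12 without WT-HFD-1443. Isg15 (0.86 ± 0.47), Rsad2 (0.25 ± 0.56) and Irf7 (0.14 ± 0.30) had values above 0.

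**Figure D4:**
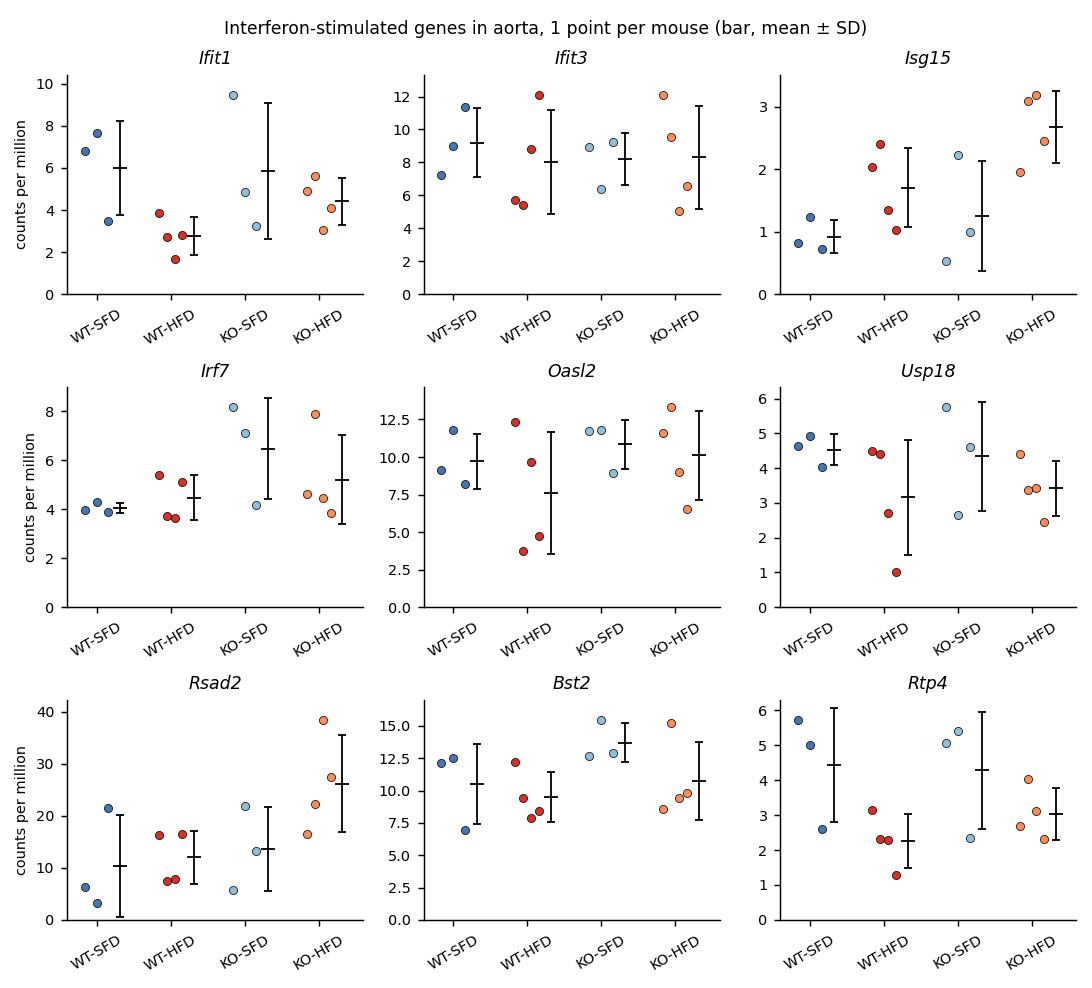
Each panel plots the level of 1 member in aorta, in CPM after TMM scaling, with 1 point per mouse (3 on SFD and 4 on HFD in each genotype) and the mean ± SD as a black bar. The WT-SFD and WT-HFD points of Ifit1 and Rtp4 overlap by 1 SFD mouse, and the 4 KO-HFD points of Rsad2 reach from 16.6 to 38.4 CPM.

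In KO aortae on HFD against SFD, 6 of 9 members had a log2 difference below 0. The median of the members was -0.29, beside -0.0016 over all genes, and lay between -0.34 and -0.024 when 1 aorta was left out. Of the 9 members, 0 were called (0% of genes), 0 separated the groups (7.04%) and 1 had an unadjusted p under 0.05 (7.47% of genes). That member was Isg15, measured at 0.535, 2.22 and 0.995 CPM in the KO-SFD aortae and at 1.95, 3.09, 3.19 and 2.46 CPM in the KO-HFD aortae. KO-SFD-1452, the highest of the SFD group, lay above the lowest HFD aorta. The difference was 1.12 ± 0.45 on the log2 scale (SE, edgeR adjusted p = 0.604). It rested on 4, 16 and 11 counts against 16 to 40 counts and was 1.77 without KO-SFD-1452 and 0.78 without KO-SFD-1319. Marker lists had these values in the same comparison. All 12 adipocyte markers had a log2 difference below 0 (median -3.33, 10 at an unadjusted p under 0.05), as had all 5 lymphocyte genes tested (median -1.67, 2 at an unadjusted p under 0.05), the 3 haemoglobin genes lay above 0 (median 1.16), and none was called. With the adipocyte markers as a covariate the Isg15 difference was 1.17, and with the haemoglobin genes 1.05. Isg15 ran from 0.922 ± 0.270 CPM in WT-SFD (n = 3) to 1.70 ± 0.631 CPM in WT-HFD (n = 4), and the difference between the diet effects of the genotypes, 0.25 ± 0.66, was not called. For all 9 members these differences of effects lay between -0.43 and 0.72 with SEs of 0.34 to 0.77, and 0 of 9 were called (0% of genes, unadjusted 0 of 9 against 4.1%).

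Between genotypes on SFD, 0 of 9 members were called in aorta (0.0811% of genes) and 0 had an unadjusted p under 0.05 (6.14%). Bst2 was the 1 of 9 members without overlap (8.57% of genes), with 12.1, 12.5 and 6.92 CPM in WT-SFD and 12.7, 15.4 and 12.9 CPM in KO-SFD. The highest WT and the lowest KO aorta lay next to each other. Its difference was 0.37 ± 0.26 on the log2 scale. Irf7 had the highest difference, 0.66 ± 0.31, with 3.95, 4.30 and 3.89 CPM in WT-SFD and 8.15, 7.09 and 4.16 CPM in KO-SFD. KO-SFD-1507, the lowest, lay inside the WT range. The leucocyte list had a median difference of 0.72 here, with 9 of 10 markers above 0, 6 of 10 at an unadjusted p under 0.05 and none called. The lymphocyte list summed to between 2.32 and 3.79 CPM in WT-SFD and between 9.87 and 28.7 CPM in KO-SFD aortae, with 5 of its 5 tested genes at an unadjusted p under 0.05 and none called. Without scaling factors, 9 of 9 members rather than 5 of 9 had a difference above 0, where the median of all genes shifted by 0.29.

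Between genotypes on HFD, all 9 members had a log2 difference above 0 in aorta, with a median of 0.41 beside -0.01 over all genes, of which 48.5% were above 0. None was called (0.0811% of genes). The members are not independent of each other, and without KO-HFD-1503, the aorta with the highest leucocyte sum, 6 of 9 were above 0, the fewest of the alternatives run. All 9 were above 0 under each scaling tried. Without WT-HFD-1442 the median was 0.63. Of the marker lists, 7 of 10 leucocyte markers (median 0.23) and 3 of 3 haemoglobin genes (median 0.44) lay above 0, and 11 of 12 adipocyte markers (median -0.48) and 4 of 5 lymphocyte genes (median -1.19) below 0, with none called. Their part in the values of the members was not tested. Rsad2 was the 1 of 9 with an unadjusted p under 0.05 (5.04% of genes) and the 1 of 9 without overlap (4.18%). It was measured at 16.3, 7.52, 7.80 and 16.6 CPM in WT-HFD and at 16.6, 22.2, 38.4 and 27.6 CPM in KO-HFD. The lowest KO aorta lay above the highest WT aorta by less than the worth of 1 count. The difference was 1.13 ± 0.49 on the log2 scale (SE, edgeR adjusted p = 0.959). With the haemoglobin genes as a covariate it was 0.93, with an edgeR adjusted p of 0.103.

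Rsad2 in aorta spanned 3.17 to 38.4 CPM, the widest range of the 9 members, and it varied with several marker lists. On SFD it was 6.27, 3.17 and 21.5 CPM in WT and 5.75, 21.8 and 13.3 CPM in KO. The 3 lowest of these, in WT-SFD-1309, WT-SFD-1310 and KO-SFD-1319, were the 3 aortae with the least haemoglobin transcript (18.3, 6.96 and 15.5 CPM) and the most adipocyte transcript. KO-HFD-1504, the highest for Rsad2, also had the most haemoglobin transcript (577 CPM). Over 14 aortae the log2 values of Rsad2 correlated at 0.88 with the haemoglobin sum, at -0.71 with the adipocyte sum and at 0.71 with the smooth muscle sum. It correlated at -0.73 with the sum of the sensors and adaptors, at -0.59 with that of endothelial markers, at -0.52 with that of other interferon-stimulated genes and at -0.45 with that of genes induced by interferon gamma. Among the genes most like Rsad2, chosen after its values were seen, were Apol11b (0.96), Slc4a1 (0.95), the anion exchanger of red cells, and Ube2o (0.93). In kidney, where haemoglobin transcripts summed to between 1387 and 4983 CPM, the correlation with Rsad2 was -0.43. The parts of red-cell, adipose and smooth muscle RNA in the aortic Rsad2 values were not tested.

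**Figure D5:**
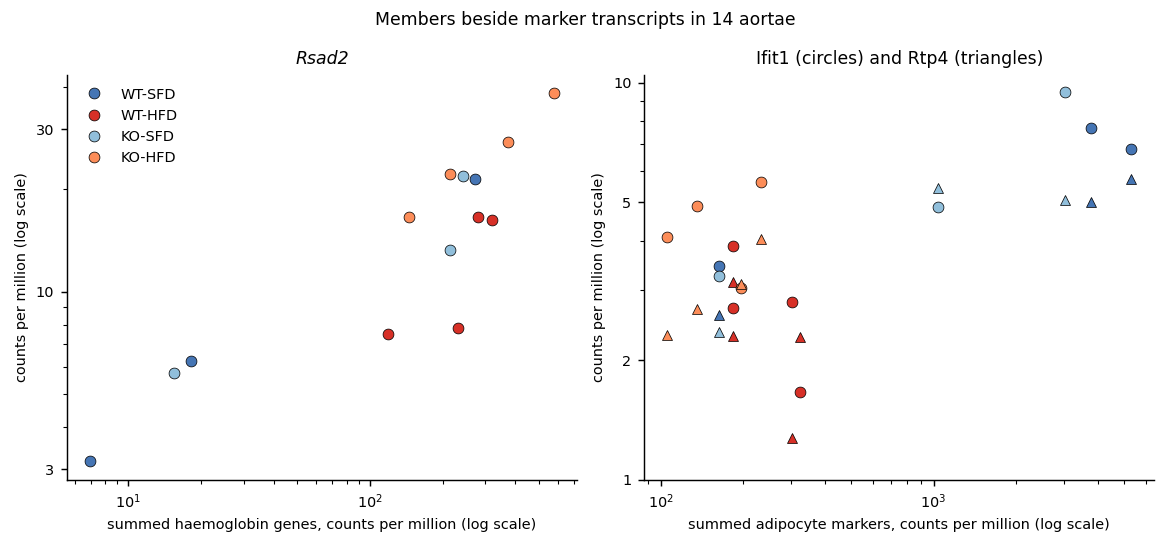
Members beside marker transcripts in 14 aortae, both axes in CPM on a log scale and points coloured by group. Left, Rsad2 against the sum of 3 haemoglobin genes, where the 3 aortae lowest in both lie at the lower left. Right, Ifit1 (circles) and Rtp4 (triangles) against the sum of 12 adipocyte markers, where the 3 aortae farthest to the right lie near the top of both genes.

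By the mean of the members, WT-SFD-1309 and KO-SFD-1319, which gave both tissues, did not hold the same place in each. The mean of KO-HFD-1504, the other such mouse, lay near the middle in both. WT-SFD-1309 had a mean z score of the members of 0.05 in aorta and -1.13 in kidney. KO-SFD-1319 had 0.54 and -0.51, and KO-HFD-1504 had -0.02 and 0.17. The single members of KO-HFD-1504 were spread in aorta, where it was the highest of 14 for Rsad2 and Isg15 and the lowest for Ifit3. With 3 mice no relation between the tissues can be given.

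Upstream of the members, the ligands themselves had few or no counts. None of 10 interferon genes passed the filter in either tissue, and 6 of 10, Ifnb1 among them, had no count in any aorta. The same number had none in any kidney. None of the 10 lies in the stretches listed at 0 throughout, but a 0 here need not be a measured absence. A count of 0 allows up to 3 counts, which were worth between 0.239 and 0.432 CPM in an aorta and between 0.103 and 0.190 CPM in a kidney. The highest was Ifnk, keratinocyte interferon, with up to 8 counts in an aorta, and Ifng reached 7 counts in a kidney. The receptors and their signalling chain were measured in both tissues (10 of 11, Tyk2 not analysed here). Ifnar1 had 38.3 CPM in aorta and 38.7 CPM in kidney, and Jak1, the most abundant of them, 94.4 and 108.7 CPM. None of the 10 was called in any comparison. Ifnlr1, a receptor of lambda interferons, was 6.07 ± 1.98 CPM in WT-SFD and 3.99 ± 0.467 CPM in WT-HFD kidney (SD, n = 4 each), without overlap (5.01% of genes). Its log2 difference was -0.60 ± 0.20 (SE), with an edgeR adjusted p of 0.287.

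Of 16 sensors and adaptors 11 were tested (Mb21d1, Tlr7, Tlr9, Myd88 and Irf8 not analysed here), and 1 was called. Ikbke, a kinase that phosphorylates IRF3 and IRF7, rose on HFD in KO kidneys from 4.59 ± 0.834 to 8.06 ± 1.21 CPM (SD, n = 4 each), without overlap. The difference was 0.81 ± 0.15 on the log2 scale (edgeR adjusted p = 0.00649). In that comparison 2.3% of all genes tested were called and 8.87% had groups without overlap. In WT kidneys Ikbke had 5.03 ± 0.229 CPM on SFD and 7.68 ± 0.875 CPM on HFD (0.61 ± 0.15, adjusted p = 0.0756 in edgeR), also without overlap (5.01% of genes). The difference between the diet effects, 0.20 ± 0.21, was not called. In aorta Ikbke lay between 14.8 and 24.2 CPM with no call. Mavs and Irf3, the most abundant of the list in aorta and in kidney, were not called. Of 7 genes that restrain the pathway 5 were tested (Pias1 and Irf2bp2 not analysed here), the most abundant being Irf2 in aorta and Ptpn6 in kidney, and none was called in any comparison.

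Among 59 other interferon-stimulated genes, 53 were tested in aorta and 57 in kidney, and none was called in any comparison. On HFD 39 of 53 had a difference below 0 in WT aorta and 36 of 53 in KO aorta, each with a median of -0.18. In WT aorta Ifi44 was 3.80 ± 2.93 CPM on SFD (SD, n = 3) and 0.664 ± 0.203 on HFD (n = 4), a log2 difference of -2.48 ± 0.63 (edgeR adjusted p = 0.0780). The same value was the smallest adjusted p over all genes and among the adipocyte markers. These SFD aortae included the pair rich in adipocyte markers, whose part in the Ifi44 difference was not tested. Ifi27l2a was 67.5 ± 59.5 and 10.1 ± 3.97 CPM (-2.73 ± 0.83, adjusted p = 0.107 in edgeR), and its SFD mean rested on the aortae rich in adipocyte markers, since its lowest SFD aorta had 5.91 CPM. In KO kidney on HFD the median was 0.05, with 33 of 57 above 0. Lgals3bp, a secreted glycoprotein, was 63.7 ± 11.0 CPM on SFD and 104.2 ± 7.47 CPM on HFD (SD, n = 4 each, log2 difference 0.71 ± 0.19, adjusted p = 0.0627 in edgeR), and Parp10 was 69.4 ± 16.2 and 44.9 ± 5.40 CPM (-0.63 ± 0.18, adjusted p = 0.0902). Of 20 genes known for their induction by interferon gamma, 19 were tested in each tissue and none was called. In WT kidney on HFD 18 of the 19 had a difference above 0, with a median of 0.31, beside 14 of 19 and 0.08 in KO kidney, 2 of 19 and -0.31 in WT aorta and 9 of 19 and 0.00 in KO aorta. The 10 leucocyte markers were all above 0 in WT kidney, with a median of 0.34 and none called.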

How the data were processed

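Gene counts were deposited by the authors for 14 aortae and 16 kidneys, as whole-number counts per gene. Per the labels and the study's methods, reads were trimmed with cutadapt, aligned to mm10 with TopHat and counted with featureCounts, and ribosomal RNA was removed before library preparation. The strand setting is not given in the sources used here. In both tables the genes of chromosomes 9, X and Y, of the mitochondrial genome and of the end of chromosome 8 were at 0 in every library, so library totals do not include them. Aorta and kidney were sequenced at different sites and were fitted separately. From these counts, genes were filtered by group (filterByExpr), scaled by TMM and tested in edgeR 4.0.16 (R 4.3.3) with the quasi-likelihood test, all groups of a tissue in 1 fit, with Benjamini-Hochberg adjustment over all genes. Calls were made below an adjusted p of 0.05. Counts per 1000000 (CPM) used TMM-scaled totals, with a prior count of 2 for log2 values. DESeq2 1.42.0, other scalings, filters and covariates were alternatives. The procedure was tested on simulated counts for HFD against SFD in WT, with the same spread for all genes of a tissue. Differences in tissue composition between mice, such as those of the adipocyte markers, were not simulated. The study speaks of littermates, but the labels do not tie mice to each other, and p-values measure the spread between these mice. No libraries were copies of each other. All 9 members were named. Of the listed pathway genes, those called were named, together with some others, such as genes with a small p or a high level. Members at the end of a range or behind a small count were named after their values were seen. The members and lists were chosen with earlier results of these data known. Precision in CPM covers counting error only. Exon lengths came from GENCODE vM21 and matched all 202 listed genes. Some genes of the lists and likeness rankings are not reported here.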

Additional observations from a re-analysis of the deposited data

Results flagged for a closer look

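In 54 groups of 4 mice, 3 values of a member stood apart from the other 3 mice by Dixon's test, where chance gives about 1 in 20. Ifit3 in WT-SFD kidney was 46.8 CPM in WT-SFD-1694, the deepest library, and at most 23.7 CPM in the other mice of the group. Ifit3 in WT-HFD kidney was 35.9 CPM in WT-HFD-1535. Irf7 in KO-HFD kidney was 24.2 CPM in KO-HFD-1504, and 23.0 CPM in each of the other 3 mice.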

How the results depend on the processing

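No member was called in kidney under any alternative run (28 with another setting and 80 leaving out 1 mouse, counted over the 5 comparisons). In aorta the number called was 0 in all of them except without WT-SFD replicate 3 (WT-SFD-1445), where it was 2 on HFD against SFD in WT (Ifit1 and Rtp4) beside 11.7% of 15329 genes, with the adipocyte-rich pair as the SFD aortae left in WT, so the range over refits that left out 1 aorta was 0 to 2. Over their alternatives, by edgeR or DESeq2, the adjusted p ran from 0.0315 to 0.906 for Ifit1 and from 0.0473 to 0.887 for Rtp4. It ran from 0.413 to 1.00 for Isg15 and from 0.103 to 1 for Rsad2. The median log2 difference of the aortic members moved in these cases, of which the cause was not tested. Without scaling factors it was 0.42 for KO against WT on SFD (0.15 in the main fit) and 0.063 for the difference of the diet effects (0.25 in the main fit). For HFD against SFD in KO it was -0.29 in the main fit. There it was 0.063 with the adipocyte covariate and -0.0017 with the haemoglobin covariate (chosen after seeing the data). Leaving out 1 aorta at a time gave 0.25 to 0.63 for KO against WT on HFD, -0.34 to -0.024 for HFD against SFD in KO and -0.37 to -0.12 for HFD against SFD in WT. In kidney, leaving out 1 mouse gave -0.41 to -0.0072 for HFD against SFD in WT, -0.26 to -0.034 for it in KO, -0.18 to 0.22 for KO against WT on SFD and -0.072 to 0.11 for KO against WT on HFD. Without Rsad2, a choice made after seeing the data, the mean correlation between members was 0.23 in aorta and 0.70 in kidney. Without scaling factors the median of all genes shifted by up to 0.29 in aorta. No paired analysis was possible because replicate numbers only follow accession order and the labels pair no mice. Low counts limit the aortic values of Isg15 most.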
